A study of Mus musculus with 6 samples.

Results

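Hepatic mRNA of 9 genes of arsenic handling and metal defense was examined in F1 female mice born to fathers that drank inorganic arsenic. The genes were taken by symbol from a table of 17624 genes and are As3mt, Gsto1, Pnp, Aqp9, Abcc2, Mt1, Mt2, Mtf1 and Slc30a1. Each symbol occurred in a single row. They were chosen with results of these data already known, so their values are given as a description and support nothing beyond it. All 6 livers came from C57BL/6 females. The 3 iAsF1-F mice had fathers treated with sodium arsenite in drinking water before mating with unexposed females, and the 3 conF1-F mice had unexposed fathers. The F1 females of both groups did not drink arsenic themselves, so any difference here lies in the offspring and not in an exposed animal. The labels place collection at a feeding status, whereas the study places the livers it compared by RNA-seq in a refeeding condition. Its methods describe refeeding after an overnight fast for livers used for protein. The age at collection and the litter of each female are not given in the sources used here. Values are RPKM, that is, reads scaled to transcript length and to the mapped reads of the library, from RNA-seq of total RNA.

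Arsenic that enters a hepatocyte as arsenite is methylated stepwise by As3mt, with S-adenosylmethionine as the methyl donor, and the methylated products leave in bile and urine. Aqp9, a water and glycerol channel, lets arsenite through the plasma membrane, and Abcc2, a pump of the bile canaliculus, carries arsenic bound to glutathione into bile. Pentavalent arsenic has to be reduced along the way, and Pnp and Gsto1 can do so in the test tube. Metallothioneins are small cysteine-rich proteins that bind zinc, copper, cadmium and arsenite. Their genes Mt1 and Mt2 are switched on in liver by metals, through the zinc-sensing transcription factor Mtf1, and also by glucocorticoids and by inflammation. Slc30a1, a zinc exporter of the plasma membrane, is another known target of Mtf1.

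Mtf1 binds the metal response element, whose core reads TGCACNC or TGCGCNC. Windows from 250 bases before to 50 bases after the gene start were taken from RefSeq (GRCm38.p6) and searched for this core on both strands. All 9 genes had a window, and 3 of them held a match, namely Mt1, Mt2 and Slc30a1. The other 6, Mtf1 itself among them, had none within these letters. The windows of those 3 genes are shown because they carry the element common to Mt1, Mt2 and Slc30a1, for which the other windows have no match. They are written 5′ to 3′ on the strand of the gene, with each match in capitals, and a match on the opposite strand reads GNGTGCA or GNGCGCA. The window of Mt2 lies at chr8:94172368-94172667, that of Mt1 at chr8:94178839-94179138 and that of Slc30a1 at chr1:191906531-191906830, all on the plus strand.
Mt2: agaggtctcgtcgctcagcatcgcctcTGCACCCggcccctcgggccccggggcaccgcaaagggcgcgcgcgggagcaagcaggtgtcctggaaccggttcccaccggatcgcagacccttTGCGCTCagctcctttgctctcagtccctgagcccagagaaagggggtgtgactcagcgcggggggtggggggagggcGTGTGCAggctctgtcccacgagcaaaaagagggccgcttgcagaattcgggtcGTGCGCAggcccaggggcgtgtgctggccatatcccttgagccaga
Mt1: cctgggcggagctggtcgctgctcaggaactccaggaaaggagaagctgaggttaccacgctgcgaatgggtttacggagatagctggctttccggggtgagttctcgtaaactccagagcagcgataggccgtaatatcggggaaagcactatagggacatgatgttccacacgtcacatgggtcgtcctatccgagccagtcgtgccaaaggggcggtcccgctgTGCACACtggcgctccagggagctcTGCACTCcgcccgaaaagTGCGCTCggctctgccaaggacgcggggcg
Slc30a1: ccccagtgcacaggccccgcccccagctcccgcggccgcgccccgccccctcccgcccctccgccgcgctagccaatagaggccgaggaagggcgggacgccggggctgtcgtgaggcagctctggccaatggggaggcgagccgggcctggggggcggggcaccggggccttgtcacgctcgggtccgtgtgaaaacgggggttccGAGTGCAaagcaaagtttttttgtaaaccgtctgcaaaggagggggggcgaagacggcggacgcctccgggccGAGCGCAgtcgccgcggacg

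Mt2 held 4 matches, which begin 223 and 128 bases before the start on the strand of the gene, and 50 bases before and 4 bases after it on the opposite strand. Mt1 held 3 matches, all on the strand of the gene, which begin 23 bases before and 2 and 20 bases after the start. Slc30a1 held 2, both on the opposite strand, which begin 43 bases before and 30 bases after the start. Of 32851 RefSeq windows of the same length, 25.7% held at least 1 match, 7.11% at least 2, 1.97% at least 3 and 0.517% at least 4. A match in 3 of the 9 genes is thus near the share of all windows. Bases G and C made up 60.7% to 73.0% of the windows with a match and 41.3% to 66.3% of the others. The shares over all windows were not matched for this. A match is a description of letters and not of binding, which was not measured. The gene start is a matter of annotation too, since GENCODE places its Mt2 transcripts 46 and 242 bases downstream of the RefSeq start. Its Mt1 transcripts begin 7 bases upstream and 122 and 152 bases downstream of the RefSeq start. From the downstream starts of either gene, every match would lie before the start.

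**Figure D1:**
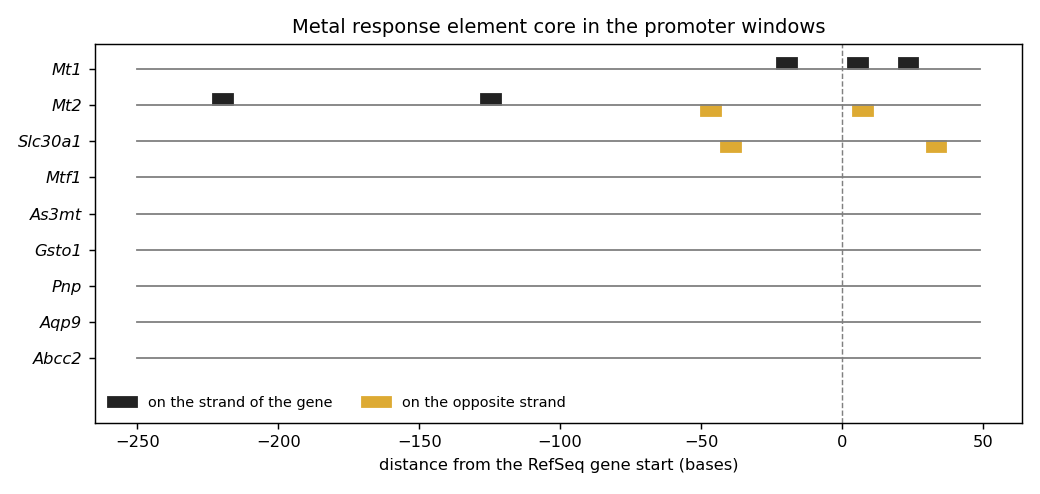
Matches to the metal response element core in the promoter windows of the 9 genes, by distance in bases from the RefSeq gene start. Boxes above a line lie on the strand of the gene and boxes below it on the opposite strand. Mt2 has 4 matches, Mt1 3 and Slc30a1 2, and the other 6 genes have none.

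Mt1 and Mt2 are neighbors on chromosome 8 of GRCm38, both on the plus strand. Mt2 runs from 94172664 to 94173568 and Mt1 from 94179082 to 94180327, with 5513 bases between them. The longest stretch of identical bases between their transcripts is 20 bases. As3mt (19:46707458-46741099), Gsto1 (19:47854970-47864790) and Abcc2 (19:43782192-43840740) lie on chromosome 19, all on the plus strand. The remaining genes are Aqp9 (9:71110659-71168682, minus strand), Mtf1 (4:124802104-124849800, plus strand), Slc30a1 (1:191906767-191913247, plus strand) and Pnp. The table pairs Pnp with the identifier ENSMUSG00000021871 (14:50944517-50963136, plus strand), which the GENCODE annotation used here names Gm49342 and which spans both Pnp and its neighbor Pnp2. Annotated transcripts of Pnp and Pnp2 share a run of 292 identical bases, so how reads were divided between them is uncertain.

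Read numbers behind these libraries are not known, so no counting interval can be given. The sum of RPKM was 295275 to 306096 per liver, and genes encoded by mitochondria made up 14.2% to 17.0% of it. Tests covered the 6448 genes that averaged 1 RPKM or more, of which 1261 (19.6%) were listed at 0 in 1 to 5 livers. Even among 2449 genes that exceeded 10 RPKM in some liver, 329 (13.4%) were listed at 0 in another, so a 0 may not mean absence of the mRNA. The fit across all of them used limma on log2(RPKM + 1), with Benjamini-Hochberg adjustment over all 6448 genes. A log2 fold change is iAsF1-F minus conF1-F on that scale, where changes at low RPKM come out smaller than they are. Hepatocyte markers summed to 35152 to 41510 RPKM in conF1-F and 37165 to 42456 RPKM in iAsF1-F over 8 of 9 listed markers. Alb alone, at 29413.5 to 34762.8 RPKM, made up most of this. Of the 8 markers 7 had a log2 fold change above 0, where 50.3% of all tested genes lay below 0, and none passed adjusted. Groups did not overlap for 2 that were higher and 1 that was lower in iAsF1-F. Of all tested genes 5.83% were higher and 5.71% lower in this way. Of the 6 livers, conF1-F replicate 1 had the highest value of 5 of the 9 genes, and iAsF1-F replicate 1 had the lowest of 3 and 0 for Mt2, so values without each are given. Without conF1-F replicate 1 the log2 fold change was −1.04 for Mt1, −2.77 for Mt2 and −0.42 for As3mt. Without iAsF1-F replicate 1 it was −1.08, −2.85 and −0.27.

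The 9 genes spanned a wide range of levels per length. Aqp9 had the highest mean RPKM over the 6 livers (52.4 RPKM, rank 500 of the 6448 tested genes). Pnp (23.4 RPKM), As3mt (20.8 RPKM), Gsto1 (20.2 RPKM) and Abcc2 (17.4 RPKM) followed, and their ranges over the livers overlapped. Mt1 (12.6 RPKM) and Mt2 (12.2 RPKM) came next, Slc30a1 was at 3.13 RPKM, and Mtf1 at 0.206 RPKM fell below the limit of 1 RPKM and was not tested. By their decimals, some values are averages over several entries of a gene, 3 for Gsto1 and Mt1, 2 for Aqp9 and 5 for Abcc2. The order of levels depends on this. Aqp9 lay above Pnp in every liver, while all other neighbors in the order of the 8 tested genes overlapped in range. Summed over its 3 entries, Mt1 would range from 14.4 to 72.7 RPKM.

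Among the 9 genes, the metallothioneins differed most between the groups. Mt1 mRNA averaged 2.73-fold lower in the livers of iAsF1-F females, Mt2 was listed at 0 in 2 of 3 iAsF1-F livers, and As3mt averaged 1.41-fold lower. For these 3 genes every iAsF1-F liver was below every conF1-F liver. The reductases, the channel and the pump differed by less than their spread. In whole liver, fewer cells of a type and less RNA per cell cannot be told apart. None of the 8 tested genes passed the adjusted threshold of 0.05 in limma (smallest adjusted p = 0.877), where 0.248% of all tested genes did (16 of 6448). At an unadjusted p under 0.05, Mt1 and Mt2 passed, 2 of 8, where 5.12% of all tested genes did in either direction and 2.37% in the lower direction. Groups that did not overlap, with iAsF1-F lower, were seen for 3 of the 8, where 5.71% of all tested genes showed it, and 5.83% showed the reverse. With 3 against 3 livers the exact permutation test cannot give a two-sided p below 0.1.

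**Figure D2:**
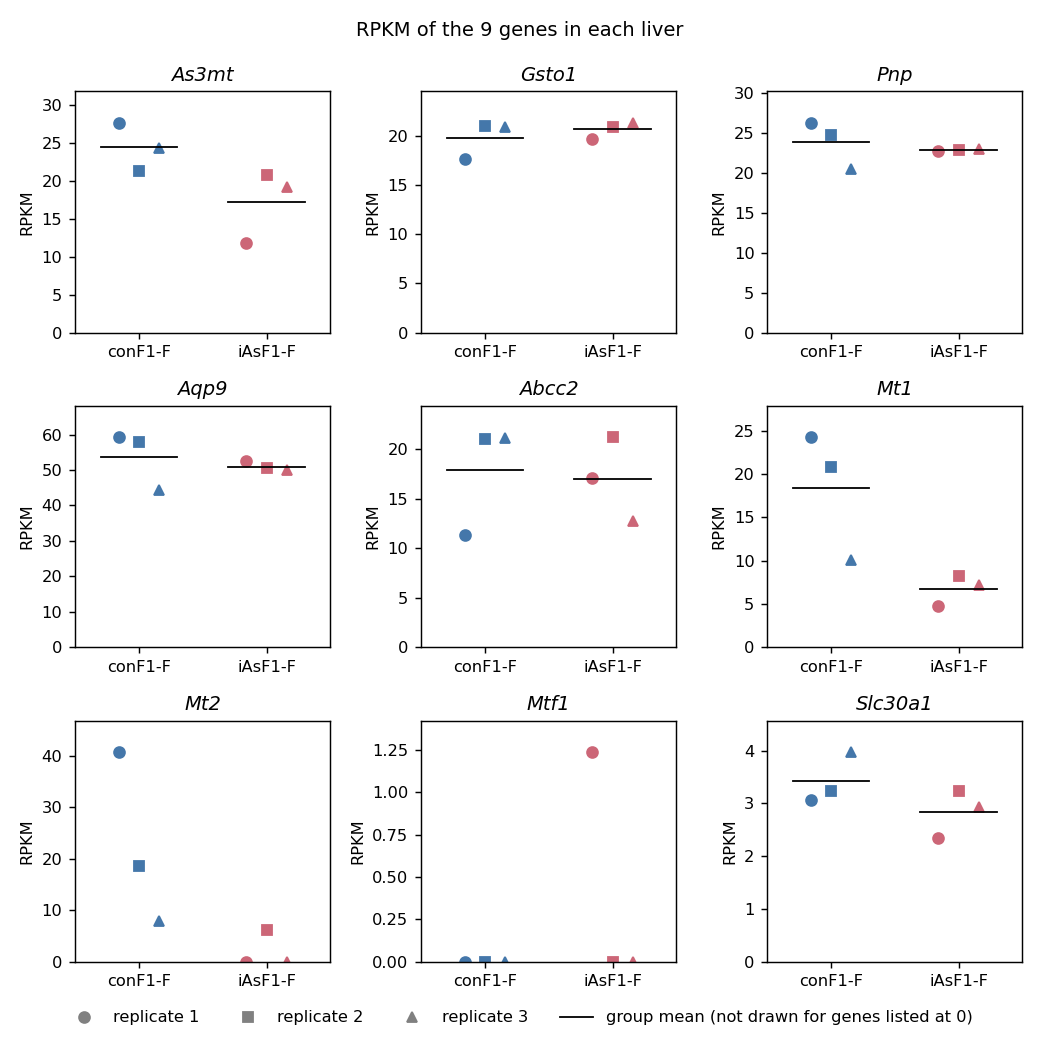
RPKM of the 9 genes in each liver, with conF1-F in blue and iAsF1-F in red, replicate numbers as symbols and the group mean as a line, not drawn for Mt2 and Mtf1, which have livers listed at 0. Each panel has its own axis from 0. The groups do not overlap for As3mt, Mt1 and Mt2, and overlap for Gsto1, Pnp, Aqp9, Abcc2 and Slc30a1.

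As3mt, the arsenic methyltransferase, stood at 27.7, 21.3 and 24.3 RPKM in conF1-F replicates 1 to 3 and at 11.8, 20.8 and 19.2 RPKM in iAsF1-F replicates 1 to 3. The groups were separated by little, since the lowest conF1-F liver was 1.02-fold above the highest iAsF1-F liver, and iAsF1-F replicate 1 was far below the other livers. The means were 24.4 ± 3.18 and 17.3 ± 4.79 RPKM (SD, n = 3 each). The log2 fold change was −0.51 (SE 0.23, 95% interval −1.09 to 0.08), with limma's adjusted p = 0.877, and the exact permutation p was 0.1.

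Genes that can reduce arsenic showed no such gap. Gsto1, an omega-class glutathione transferase, was at 17.6, 21.0 and 20.9 RPKM in conF1-F livers, against 19.7, 20.9 and 21.3 RPKM in iAsF1-F livers. All but conF1-F replicate 1 fell within a narrow band, and the groups overlapped. The log2 fold change was 0.06 (SE 0.09, 95% interval −0.18 to 0.30, limma's adjusted p = 0.905). Pnp, purine nucleoside phosphorylase, was at 26.3, 24.8 and 20.5 RPKM in conF1-F livers, against 22.8, 22.9 and 23.1 RPKM in iAsF1-F livers. Here the 3 iAsF1-F livers nearly coincided and lay inside the conF1-F range, with a log2 fold change of −0.05 (SE 0.11, 95% interval −0.32 to 0.22, limma's adjusted p = 0.954).

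The uptake channel and the efflux pump likewise overlapped between the groups. Aqp9 was at 59.2, 57.9 and 44.3 RPKM in conF1-F livers, against 52.5, 50.5 and 49.9 RPKM in iAsF1-F livers, the iAsF1-F values again lying inside the conF1-F range. Its log2 fold change was −0.06 (SE 0.12, 95% interval −0.38 to 0.25, limma's adjusted p = 0.938). Abcc2 was at 11.4, 21.0 and 21.2 RPKM in conF1-F livers, against 17.1, 21.2 and 12.8 RPKM in iAsF1-F livers. It varied up to 1.86-fold within a group, more than Gsto1, Pnp or Aqp9, with a low liver in each group. Its log2 fold change of −0.04 had a wide 95% interval of −0.80 to 0.72 (SE 0.30, limma's adjusted p = 0.999). Leaving out conF1-F replicate 1 turned the sign of the log2 fold change of Gsto1, Pnp and Aqp9 (−0.020, 0.022 and 0.0092), and leaving out conF1-F replicate 2 or 3 or iAsF1-F replicate 3 turned that of Abcc2 (0.09, 0.10 and 0.14).

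Mt1 was at 24.2, 20.9 and 10.1 RPKM in conF1-F replicates 1 to 3 and at 4.79, 8.19 and 7.19 RPKM in iAsF1-F replicates 1 to 3. The conF1-F livers were spread over 2.41-fold, and the lowest of them was 1.23-fold above the highest iAsF1-F liver. The means were 18.4 ± 7.40 and 6.72 ± 1.74 RPKM (SD, n = 3 each), which is 63.4% lower in iAsF1-F. The log2 fold change was −1.27 (SE 0.37, 95% interval −2.19 to −0.35), with rank 107 by p among the 6448 tested genes and limma's adjusted p = 0.877. Leaving out each liver in turn gave −1.63 to −1.04, all below 0, with −1.63 reached without conF1-F replicate 3.

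Mt2 was at 40.7, 18.5 and 7.82 RPKM in conF1-F replicates 1 to 3. In iAsF1-F it was at 6.11 RPKM in replicate 2 and listed at 0 in replicates 1 and 3. The conF1-F livers thus ran over 5.21-fold, in the same order as for Mt1, and the lowest was 1.28-fold above the single iAsF1-F liver with a value. No fold between the groups is given because of the zeros. The fitted log2 difference was −3.33 (SE 0.99, 95% interval −5.81 to −0.84, limma's adjusted p = 0.877) and depends on the pseudocount, since it was −5.52 with 0.1 RPKM in place of 1.

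**Figure D3:**
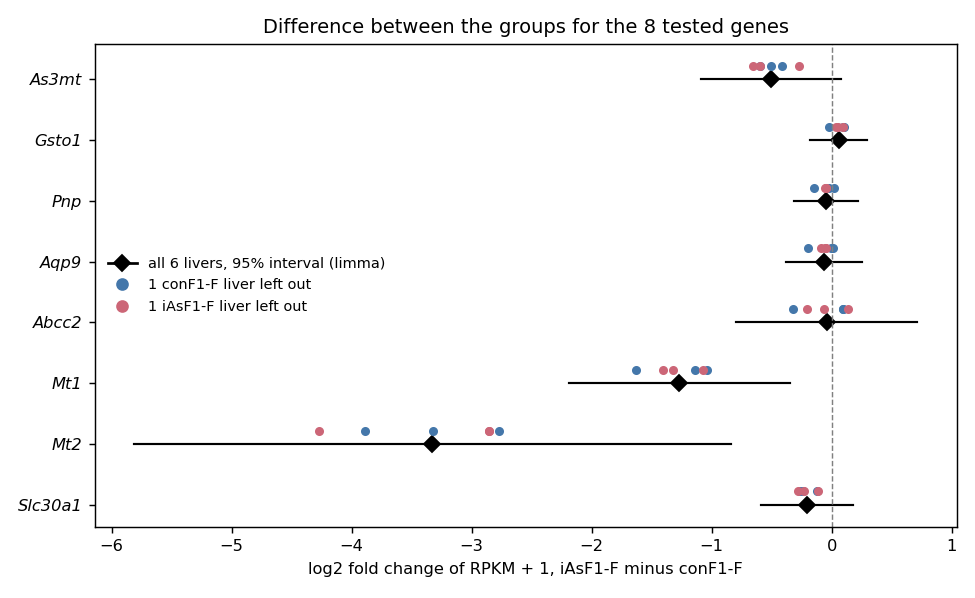
Log2 fold change of RPKM + 1, iAsF1-F minus conF1-F, for the 8 tested genes. Diamonds and bars give the limma estimate and its 95% interval over all 6 livers, and dots the estimate with 1 liver left out, blue for a conF1-F and red for an iAsF1-F liver. The intervals of Mt1 and Mt2 lie below 0 and those of the other 6 genes include 0.

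Slc30a1, the zinc exporter, was at 3.06, 3.24 and 3.97 RPKM in conF1-F livers, against 2.35, 3.23 and 2.92 RPKM in iAsF1-F livers. The groups overlapped, with means of 3.43 ± 0.481 and 2.84 ± 0.445 RPKM (SD, n = 3 each). Its log2 fold change was −0.21 (SE 0.15, 95% interval −0.59 to 0.17, limma's adjusted p = 0.877). Mtf1 was listed at 0 in all 3 conF1-F livers and in iAsF1-F replicates 2 and 3, and at 1.24 RPKM in iAsF1-F replicate 1. That liver also had the lowest Mt1, As3mt and Slc30a1 of the 6 and no listed Mt2. Across the 8 tested genes 7 log2 fold changes lay below 0, with a median of −0.14, beside 50.3% below 0 and a median of −0.0015 over all tested genes.

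Mt1 and Mt2 ranked the livers in nearly the same order. On the log2 scale Pearson's r was 0.92 (n = 6, exact permutation p = 0.025, adjusted p = 0.15 over 6 pairs of genes compared). Spearman's rho was 0.99 (exact permutation p = 0.00556, adjusted p = 0.0333). Without conF1-F replicates 1 and 2, the farthest from the median of Mt1, r was 0.83 over 4 livers. Both genes were lower in every iAsF1-F liver, so these values over all 6 livers partly restate the group difference. After each group's mean was subtracted r was 0.74, which was not tested. Groups of 3 livers were too small for an r of their own. In no other pair did r or rho reach an adjusted p under 0.05 (exact permutation, smallest 0.489). Mt1 and Slc30a1 had r = 0.42 and rho = 0.60 (exact permutation p = 0.436 and 0.242), with r = −0.23 after group means were subtracted and −0.10 without iAsF1-F replicate 1. For Mt2 and Slc30a1 r was 0.55 and rho 0.58 (exact permutation p = 0.247 and 0.244). As3mt and Gsto1 had r = −0.23 and rho = −0.37 (exact permutation p = 0.585 and 0.497), and r was 0.85 without conF1-F replicate 1. For Mtf1 with Mt1 (r = −0.60, rho = −0.65) and with Mt2 (r = −0.58, rho = −0.53) the values rest on the single liver in which Mtf1 was not 0 (exact permutation p = 0.333 and 0.5 for both measures).

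**Figure D4:**
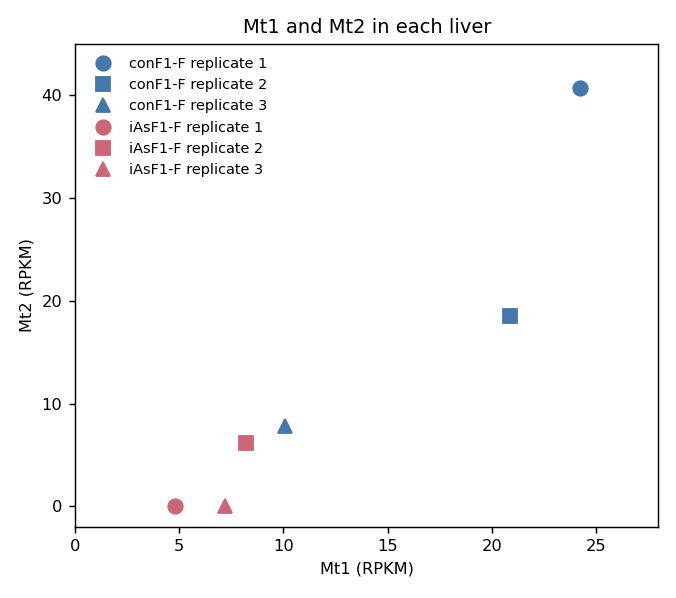
Mt2 against Mt1 in each liver, both in RPKM, with conF1-F in blue, iAsF1-F in red and the replicate number as the symbol. Livers with more Mt1 have more Mt2, except that iAsF1-F replicates 1 and 3 are both listed at 0 for Mt2. conF1-F replicate 1 stands at 24.2 RPKM of Mt1 and 40.7 RPKM of Mt2.

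The tested genes most like Mt1 over the 6 livers, by Pearson's r of log2(RPKM + 1), were Slc25a20, the mitochondrial carnitine carrier (0.98), 1700096K18Rik (0.98), Psma5, a proteasome subunit (0.98), Atp6v1f, a subunit of the proton pump of lysosomes (0.97), and Wwc1 (0.97). In all, 12 genes had r of at least 0.95, and Mt2 ranked 42. For As3mt they included Nr2f6, a nuclear receptor (0.99), Fcna, a ficolin (0.98), Znhit2 (0.98) and Hmces (0.98), among 18 with r of at least 0.95. As3mt itself had r of 0.78 with Mt1, 0.81 with Mt2 and 0.78 with Slc30a1. These values are a description over 6 livers picked from 6448 genes.

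Arsenic methylation draws on the supply of methyl groups. Of 13 listed genes of methyl supply and use 10 were tested, and none passed the adjusted threshold in limma. Gnmt, Gamt, Pemt and Nnmt in this list are methyltransferases that use S-adenosylmethionine, so the list does not measure supply alone. A log2 fold change above 0 was seen for 7 (median 0.22), where 50.3% of all tested genes lay below 0. The 3 below 0 were Nnmt (−0.91) and, on the supply side, Mat1a (−0.25) and Bhmt (−0.26). At an unadjusted p under 0.05 in limma, 4 were higher (Gnmt, Shmt1, Gamt and Pemt), where 2.75% of all tested genes were, and 1 was lower (Nnmt), where 2.37% were. Mat1a, Bhmt, Pemt and Nnmt are named after their values were seen. Gnmt, the glycine N-methyltransferase that consumes surplus S-adenosylmethionine, was at 354, 360 and 334 RPKM in conF1-F livers, against 522, 463 and 428 RPKM in iAsF1-F livers. All 3 iAsF1-F livers were above all 3 conF1-F livers, and the groups differed by 0.43 on the log2 scale (SE 0.09, limma's adjusted p = 0.538). Of the 10 tested genes 4 (Gnmt, Shmt1, Gamt and Pemt) were higher in iAsF1-F without overlap, where 5.83% of all tested genes were. Nnmt was lower without overlap, where 5.71% were. Shmt1, a serine hydroxymethyltransferase, and Gamt, which methylates guanidinoacetate to creatine, had log2 fold changes of 0.34 and 0.29 (adjusted p = 0.801 and 0.834 from limma). Gnmt, Shmt1 and Gamt are not arsenic methyltransferases.

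Other genes of arsenic uptake, efflux and reduction gave 5 tested of 17 listed, none of which passed, with 2 above and 3 below 0 and a median of −0.01. None of the 5 had an unadjusted p under 0.05 in limma. Gstm1, a mu-class glutathione transferase, was at 117, 234 and 236 RPKM in conF1-F livers, against 277, 248 and 256 RPKM in iAsF1-F livers. The groups did not overlap, with conF1-F replicate 1 far below the rest, and the adjusted p was 0.877 (limma). Of all tested genes 5.83% were likewise higher in iAsF1-F without overlap. Slco1b2, an organic anion transporter, was at 29.2 RPKM in iAsF1-F replicate 3 and at 0.407 to 1.13 RPKM in the other livers. Glrx, a glutaredoxin, was listed at 0 in iAsF1-F replicate 1 and at 8.71 to 12.2 RPKM elsewhere.

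Of 23 other zinc transporters 6 were tested. All 6 log2 fold changes lay below 0 (median −0.50), where 50.3% of all tested genes did, and 1 passed, where 0.248% did. It was Slc39a9, a zinc importer of the secretory pathway. It was at 9.46, 10.4 and 6.49 RPKM in the conF1-F livers, while all 3 iAsF1-F livers listed it at 0 (limma's adjusted p = 0.00497), and its value in conF1-F replicate 1 was among the 13 cells restored from dates. Slc39a9 reached the mean of 1 RPKM through conF1-F alone, and a listed 0 may not mean absence of the mRNA. Its call is therefore a description only, and without genes listed at 0 Slc39a9 was not tested. Slc30a10, an exporter known to carry manganese, was at 9.98 to 17.6 RPKM in conF1-F livers, against 7.46 to 14.4 RPKM in iAsF1-F livers. Slc39a14, an importer of zinc, iron and manganese, was at 2.59 to 3.03 and 0.872 to 3.02 RPKM. In both the groups overlapped. The other 3, Slc39a1, Slc39a4 and Slc39a7, are named after their values were seen. In iAsF1-F replicate 1 they were at 0, 0 and 0.217 RPKM. In iAsF1-F replicates 2 and 3 they were at 16.4 and 18.4, 18.0 and 21.8, and 5.70 and 5.54 RPKM. In conF1-F replicates 1 to 3 Slc39a1 was at 24.4, 22.6 and 0 RPKM, Slc39a4 at 17.4, 10.7 and 15.4 RPKM and Slc39a7 at 2.61, 5.88 and 6.52 RPKM. iAsF1-F replicates 2 and 3 thus lay above every conF1-F liver for Slc39a4 and inside the conF1-F range for Slc39a7. iAsF1-F replicate 1 listed 6083 genes at 0, where the other 5 livers listed 4609 to 5623. The part of this in the list's direction was not tested.

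Copper handling genes, all 9 of those in the table being tested, had none that passed, with 4 above and 5 below 0 (median −0.05). Cp, ceruloplasmin, was at 30.3, 37.5 and 31.9 RPKM in conF1-F livers, against 20.1, 26.0 and 27.6 RPKM in iAsF1-F livers. The groups did not overlap (log2 fold change −0.43, SE 0.15, limma's adjusted p = 0.877), and Cp was the only gene of the list with an unadjusted p under 0.05. Of all tested genes 5.71% were lower in iAsF1-F without overlap, and 2.37% were lower at that unadjusted limit. Sco2, a cytochrome oxidase assembly factor, was at 5.40 to 11.3 and 1.30 to 5.82 RPKM. Atox1, a copper chaperone, was at 61.5 to 87.1 RPKM in conF1-F, and in iAsF1-F at 54.7 and 62.9 RPKM in replicates 1 and 3 and listed at 0 in replicate 2.

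Other genes linked to Mtf1 gave 4 tested of 9 listed, none of which passed adjusted or at an unadjusted p under 0.05 in limma, with 1 above and 3 below 0 (median −0.04). Hmox1, heme oxygenase, was at 0.761 to 1.73 RPKM in conF1-F livers, against 0.576 to 1.16 RPKM in iAsF1-F livers. Slc40a1, the iron exporter ferroportin, was at 4.04 to 5.73 and 3.47 to 6.23 RPKM, and Gclc, a subunit of the enzyme that begins glutathione synthesis, at 85.7 to 100.5 and 76.0 to 101.7 RPKM. Thus all 3 overlapped between the groups, as Slc30a1 did.

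Glucocorticoid and inflammatory signals also act on metallothionein genes, so genes known to respond to them were read in the same livers. Of 10 glucocorticoid response genes 5 were tested, none passed, and 3 were above and 2 below 0 (median 0.03). Dusp1, a phosphatase of MAP kinases, was at 0.575, 0.310 and 1.27 RPKM in conF1-F livers, against 2.27, 2.76 and 1.46 RPKM in iAsF1-F livers (limma's adjusted p = 0.877), and was the only one with an unadjusted p under 0.05. Of all tested genes 2.75% were higher at that limit. Tat, tyrosine aminotransferase, was at 130.8 to 197.2 and 192.3 to 223.1 RPKM, and Tsc22d3, a leucine zipper protein induced by glucocorticoids, at 13.4 to 25.6 and 13.4 to 16.7 RPKM. Both overlapped between the groups.

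Of 12 acute phase genes 10 were tested, none passed, and 9 lay below 0 (median −0.22), where 50.3% of all tested genes did. Lcn2, lipocalin 2, was at 19.7, 12.7 and 5.14 RPKM in conF1-F livers, against 3.08, 3.72 and 2.39 RPKM in iAsF1-F livers. The groups did not overlap. The 3 conF1-F livers had the order seen for Mt1 and Mt2, and how many of all tested genes share this order was not counted. Its log2 fold change was −1.58 (SE 0.47, limma's adjusted p = 0.877), and it was the only gene of the list with an unadjusted p under 0.05. Of all tested genes 2.37% were lower at that limit. Hp, haptoglobin, was at 1224, 919 and 748 RPKM in conF1-F livers, against 724, 719 and 650 RPKM in iAsF1-F livers, without overlap (log2 fold change −0.44, SE 0.19, limma's adjusted p = 0.877). Of the 10 tested genes 2, Lcn2 and Hp, were lower in iAsF1-F without overlap, where 5.71% of all tested genes were. Orm1, an acid glycoprotein, was at 462.7 to 573.5 and 431.9 to 499.9 RPKM. All tested genes of the list but Lcn2 and Hp overlapped between the groups. Hamp was highest in iAsF1-F replicate 1 (475 RPKM), the liver with the lowest Mt1, and Stat3 was the only gene above 0 (log2 fold change 0.19). Saa1, serum amyloid A, which was chosen for mention after its values were seen, was at 55.0 RPKM in conF1-F replicate 1 and at 0.0073 to 0.041 RPKM in the other 5 livers. It reached the mean of 1 RPKM through that liver alone and is among the 9 below 0. The list summed to 1791 to 2774 RPKM in conF1-F livers, against 1664 to 2043 RPKM in iAsF1-F livers. Its part in the metallothionein difference was not tested.

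**Figure D5:**
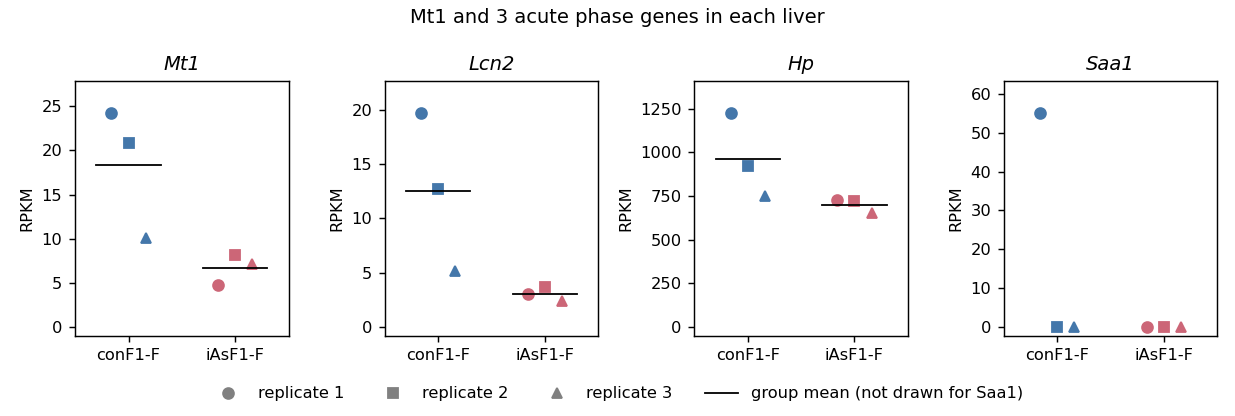
RPKM of Mt1 and the acute phase genes Lcn2, Hp and Saa1 in each liver, with conF1-F in blue, iAsF1-F in red, replicate numbers as symbols and the group mean as a line, not drawn for Saa1. In Mt1, Lcn2 and Hp conF1-F replicate 1 is highest and conF1-F replicate 3 lowest of its group. How many of all tested genes share this order was not counted. Saa1 stands at 55.0 RPKM in conF1-F replicate 1 and near 0 elsewhere. The other tested genes of the list overlap between the groups and are not drawn.

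Markers of other cells were read in the same livers. Log2 fold changes of Kupffer cell markers were below 0 in 5 of 5 tested genes, where 50.3% of all tested genes were. None of the 5 passed adjusted or at an unadjusted p under 0.05 in limma. Their sums were 92.1 to 163.4 RPKM in conF1-F livers, against 51.2 to 124.2 RPKM in iAsF1-F livers, which overlap. Log2 fold changes of erythroid markers were below 0 in 3 of 4 tested genes, none of which passed adjusted. Those 3 had an unadjusted p under 0.05 in limma (2.37% of all tested genes were lower at that limit). Erythroid sums were 371.7 to 646.8 RPKM in conF1-F and 237.1 to 367.4 RPKM in iAsF1-F, which do not overlap. Of the 4 tested erythroid genes 2 were lower in iAsF1-F without overlap, where 5.71% of all tested genes were. Of the Kupffer markers Marco was listed at 0 in 5 livers, all but conF1-F replicate 1, and Vsig4 in iAsF1-F replicates 1 and 3, the same livers in which Mt2 was. Clec4f (28.7 to 42.7 RPKM in conF1-F and 19.7 to 37.4 RPKM in iAsF1-F), Cd5l (38.3 to 65.1 and 25.2 to 47.8 RPKM) and Csf1r (8.32 to 16.7 and 6.27 to 14.5 RPKM) did not share these zeros. They were above 0 in every liver and overlapped between the groups. The part of these cells in the results was not tested. Cholangiocyte (5.05 to 18.8 and 3.58 to 5.07 RPKM), endothelial (9.76 to 17.9 and 3.19 to 17.3 RPKM), stellate (29.8 to 52.0 and 38.7 to 44.8 RPKM) and lymphocyte markers (0.019 to 0.109 and 0.075 to 2.72 RPKM) had low sums in both groups.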

How the data were processed

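Liver RNA-seq of 3 conF1-F and 3 iAsF1-F females was used. The authors deposited RPKM values per gene, scaled to transcript length and library reads before deposit. Tools in the submitters' processing notes are DESeq2 1.8.2, HTSeq and STAR 2.5.3a, and the build is mm10. Their roles are not given in the sources used here. The single-library tables and the whole-series table were equal in all 105744 cells compared. Some cells had been turned into dates, 13 values and 13 symbols, and were converted back. No read counts were analysed here, so no count model was run.

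The 6448 genes that averaged 1 RPKM or more were fitted on log2(RPKM + 1) with limma 3.58.1 (R 4.3.3). The model held the group alone, with a variance trend and Benjamini-Hochberg adjustment at 0.05. The 9 genes were also put through exact permutation tests, two-sided, and 6 pairs of genes by exact permutation of r and rho (scipy 1.17.1). The limma fit was tested on simulated data, and the permutation tests on small fixed examples with known answers. The 9 genes and all lists were chosen with earlier results of these data known. Named genes were the 9, up to 3 tested genes of smallest p per pathway list, and the 5 most like Mt1 and As3mt, of which 1 is not reported here. Alb, Mat1a, Bhmt, Pemt, Nnmt, Saa1, Hamp, Stat3, Marco, Vsig4, Clec4f, Cd5l and Csf1r fall outside this rule. So do Slc39a1, Slc39a4 and Slc39a7, and all of these were named after their values were seen. Replicates are separate livers, and p-values measure the spread between them. The exposure was given to the fathers, who are not identified for these females, so the spread between fathers was not measured. Alternatives were a pseudocount of 0.1 RPKM, no filter, a robust fit, 2 rescalings, removal of genes listed at 0, a replicate block and each liver left out. Positions come from GENCODE (GRCm38), which held 17541 of the 17624 identifiers, and promoter windows from RefSeq. Plots used matplotlib 3.10.9.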

Additional observations from a re-analysis of the deposited data

How the results depend on the processing

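None of the 8 tested genes passed the adjusted threshold under any of the 13 alternatives in which it had a value. Mtf1 was fitted only without the filter (limma's adjusted p = 0.819). Of 103 recomputed log2 fold changes of the tested genes, 97 kept their sign, and the 6 that did not came from leaving out a liver. With each liver left out in turn, the log2 fold change ran from −0.020 to 0.10 for Gsto1, −0.15 to 0.022 for Pnp, −0.20 to 0.0092 for Aqp9, −0.32 to 0.14 for Abcc2, −0.65 to −0.27 for As3mt, −0.28 to −0.11 for Slc30a1, −1.63 to −1.04 for Mt1 and −4.27 to −2.77 for Mt2. Over all alternatives the adjusted p (limma) ran from 0.186 to 0.923 for Mt1 and from 0.292 to 0.923 for Mt2. With each liver left out r ran from 0.87 to 0.95 for Mt1 and Mt2, from −0.10 to 0.67 for Mt1 and Slc30a1, and from −0.86 to 0.85 for As3mt and Gsto1. For Mt1 and Mt2 the exact permutation p was 0.05 without conF1-F replicate 3.

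The number of genes that passed, 16 over the whole table, was 28 to 40 with a liver left out and 5 without genes listed at 0. With the replicate number as a block it was 0. After group means were subtracted, same-numbered livers had correlations of −0.068, 0.017 and 0.010, within the range of differently numbered ones (−0.069 to 0.061). Such values cannot show whether livers of the same number shared a litter or a batch. The cause of these changes was not tested. The count tests listed as alternatives (edgeR, DESeq2) were not run for want of counts. Mt2, listed at 0 in a liver, has no value without such genes, and r with Mtf1 has none without iAsF1-F replicate 1. Unknown depth limits the genes at low RPKM most, Slc30a1 and Mtf1 among them, and with 3 livers a group the exact test cannot go below 0.1.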
